A study of Mus musculus with 10 samples.

Results

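In the mouse embryo the body is laid down from head to tail by the tail bud, and at one point it stops making trunk and starts making tail. The genes followed here are those of that trunk-to-tail switch: the ligand Gdf11, the type II receptors Acvr2a and Acvr2b, the type I receptors Acvr1b and Tgfbr1, the effectors Smad2 and Smad3, and the transcription factors Nr6a1, Pou5f1 and Isl1. They were chosen by symbol, which gave 10 of the 38720 symbols in the count table. Of these, 8 passed a filter on low counts that kept 16340 genes for testing, and Pou5f1 and Isl1 did not pass it.

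Gdf11 is a secreted ligand of the TGF-beta superfamily. It binds a type II receptor, which recruits and phosphorylates a type I receptor, and the type I receptor phosphorylates Smad2 and Smad3, which enter the nucleus with Smad4. Mice without Gdf11 make too many trunk vertebrae, set their hindlimbs too far back and have short tails. Nr6a1 is an orphan nuclear receptor that favours trunk formation and is switched off as the tail begins. Pou5f1, known for pluripotency, prolongs the trunk when it is kept on, and Isl1 acts with Gdf11 when hindlimb and cloacal tissues are set aside at the transition. Lin28a blocks the maturation of let-7 microRNAs, which repress mRNAs that carry a match to the let-7 seed.

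RNA was sequenced from tail buds dissected from mouse embryos at E12.5, when the tail is forming, so the trunk had already been made. Embryos of the Lin28a-induced group (n = 4, replicates 2 to 5) had 3 alleles, TRE-Lin28a, which responds to doxycycline, RLSL-rtTA, which Cre activates, and FoxD1-Cre, and were exposed to doxycycline. FoxD1-Cre limits induction to cells with a history of Foxd1 expression, whereas a whole tail bud was sequenced. The no-Cre group (replicates 6, 7 and 8, n = 3) shared both transgenes and the doxycycline but had no Cre. The wild-type group (replicates 1, 2 and 3, n = 3) is labelled without any transgene or drug. As labelled, the Cre allele is the difference between the Lin28a-induced and no-Cre groups, whereas transgenes and treatment both separate the wild-type group from them. Separate embryos are not stated for the libraries of a group, and the p-values therefore cover library-to-library spread, which may be technical.

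Lin28a itself, the induced gene, had 664, 605, 750 and 731 CPM (counts scaled to a common total, over TMM-scaled library sizes) in the Lin28a-induced libraries, against 5.03, 4.53 and 2.64 in no-Cre and 6.16, 5.72 and 4.45 in wild-type libraries. Total counts ran from 21762668 to 39517946 per library. Lin28a-induced replicate 5 and no-Cre replicate 7 had 28876 and 29382 reads of Xist and 0 of Ddx3y. All other libraries had 3 to 28 reads of Xist and 2471 to 3695 of Ddx3y. The sex covariate used below took the former as female and the latter as male, so the wild-type group held no female. The wild-type libraries stood apart from the others: the first principal component, with 59.5% of the variance, placed them at 58.7 to 81.4 and all other libraries at -33 to -26.1. Mitochondrially encoded transcripts took 0.446 to 0.69% of counts in Lin28a-induced and 0.525 to 0.61% in no-Cre libraries, against 1.85 to 2.69% in wild-type libraries. The summed level of 12 tail bud markers, among them T and Wnt3a, was 886 to 1260 CPM in Lin28a-induced and 922 to 941 CPM in no-Cre libraries. It was 759 and 785 CPM in wild-type replicates 1 and 3 and 344 CPM in wild-type replicate 2. Calls of the members, and counts over the Hox lists, that change without wild-type replicate 2 are given below with and without it. In whole tail buds, fewer cells of a type and less RNA per cell cannot be told apart.

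The sequences of the pathway under test show where these genes could meet let-7. The mature let-7 RNAs are shown because the members differ in whether their mRNAs carry a match to them. The capitals mark bases 2 to 8, the seed. All 9 let-7 family sequences searched, let-7a to let-7i and miR-98, share it, and 3 of them are printed from RefSeq (GRCm38.p6). They map to chr13:48538239-48538260 on the minus strand, chr9:106178846-106178867 on the plus strand and chr10:122985698-122985719 on the minus strand.
mmu-let-7a-5p: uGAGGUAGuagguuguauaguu
mmu-let-7g-5p: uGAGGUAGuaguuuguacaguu
mmu-let-7i-5p: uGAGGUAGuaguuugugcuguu

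Annotated 3′ UTRs (GENCODE M21, GRCm38) were searched on the transcript's strand for CTACCTC, the 7 letters complementary to that seed. The longer form CTACCTCA adds the A that faces base 1 of let-7 and contains the shorter form. Of 20831 genes with a 3′ UTR of at least 30 bases, 2000 (9.6%) held the shorter form and 683 (3.28%) the longer one. Among the members 4 of 10 held a match: Nr6a1, Tgfbr1, Acvr1b and Smad2. Gdf11, Acvr2a, Acvr2b, Smad3, Pou5f1 and Isl1 held none in their annotated 3′ UTRs. Nr6a1 held 8 matches, 3 of them of the longer form, which was the highest number in any gene searched. Tgfbr1 held 1 match of the longer form, starting at base 66 of its 3′ UTR, and Acvr1b held 1 of the shorter form, starting at base 74. Smad2 held 1 of the shorter form at base 3131. A match is a description of the letters and does not show binding.

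The 23-base windows below end 1 base past the 7 letters. Capitals mark the letters that match let-7. Those of Tgfbr1 (chr4:47410828-47410850, plus strand) and Acvr1b (chr15:101210921-101210943, plus strand) lie near the stop codon.
Tgfbr1: aggaggctggttgttCTACCTCA
Acvr1b: aagcgtcgtggaggcCTACCTCt

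The 7 windows of Nr6a1 shown here lie on the minus strand at chr2:38727719-38727741, chr2:38727449-38727471, chr2:38726592-38726614, chr2:38723993-38724015, chr2:38723685-38723707, chr2:38723675-38723697 and chr2:38723510-38723532. They are numbered in that order, which is from the stop codon onward. The fifth and the sixth overlap, and their matches are 10 bases apart.
Nr6a1 site 1: gagactgtggagcagCTACCTCc
Nr6a1 site 2: tgttgacaaagacaaCTACCTCA
Nr6a1 site 3: gaaaggggcattaaaCTACCTCA
Nr6a1 site 4: atgggggaaaaaagaCTACCTCt
Nr6a1 site 5: aagtgcatcatgaacCTACCTCA
Nr6a1 site 6: tgaacctacctcaggCTACCTCc
Nr6a1 site 7: tgctcaggccctctgCTACCTCc

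**Figure D1:**
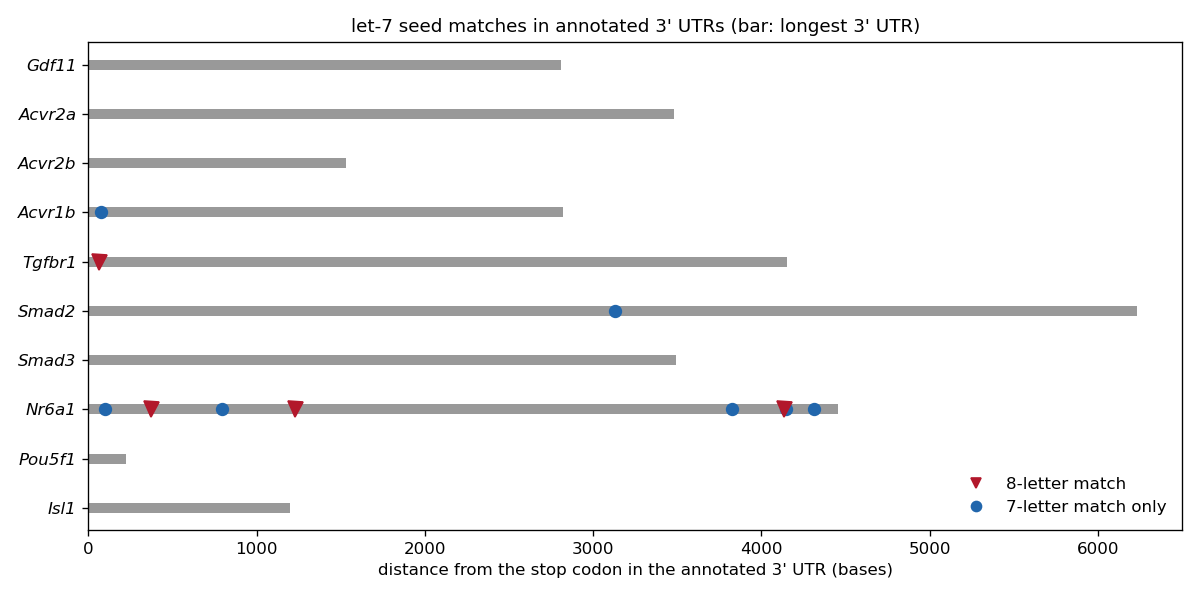
Position of let-7 seed matches in the longest annotated 3′ UTR of each member, as the distance in bases from the stop codon; red triangles are matches of 8 letters and blue circles matches of 7 letters only. Nr6a1 holds 8 matches spread over 4457 bases, Tgfbr1, Acvr1b and Smad2 hold 1 each, and the other 6 members hold none.

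Per length of exon, the ligand and Tgfbr1 were the most abundant of the 10 transcripts. Levels are given as RPKM, the CPM divided by the exon length in kilobases. Gdf11 averaged 62.4 RPKM in Lin28a-induced, 55.6 in no-Cre and 37.6 in wild-type libraries. Tgfbr1 averaged 53.4, 46.2 and 39.9 RPKM in the same groups, below Gdf11 in the transgenic groups and above it in wild type, and over coding length alone it stood above Gdf11. Smad3 followed at 34.7, 36.6 and 26.4 RPKM. Acvr1b lay at 21.6 to 22.4 RPKM in every group. Acvr2a, Acvr2b and Smad2 were lower, between 9.46 and 16 RPKM as group means. Nr6a1 stood far below, at 0.652 RPKM in Lin28a-induced, 0.569 in no-Cre and 0.917 in wild-type libraries, so that Smad2 exceeded it 17.7-fold, 18.5-fold and 10.3-fold in those groups. Between the type I receptors, the TGF-beta receptor Tgfbr1 exceeded the activin receptor Acvr1b in all 10 libraries.

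Some neighbours in this order could not be separated. In wild-type libraries the ranges of Tgfbr1 and Gdf11 overlapped, as did those of Gdf11 and Smad3 and those of Acvr2b and Smad2. The type II receptors overlapped in Lin28a-induced libraries. In no-Cre libraries Acvr2a exceeded Acvr2b 1.11-fold, and in wild-type libraries 1.68-fold, without overlap in either group.

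**Figure D2:**
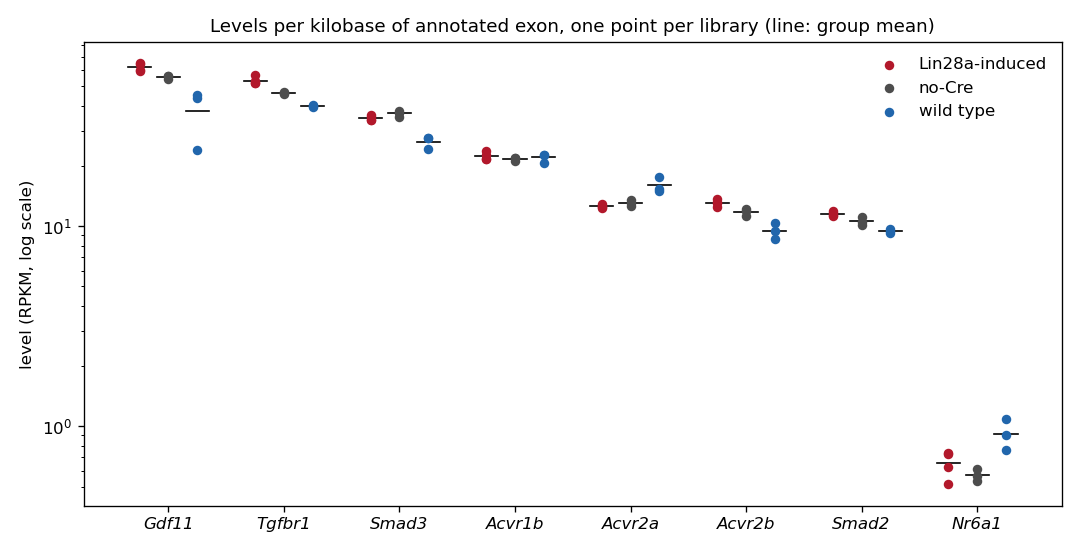
Level of each tested member per library in RPKM on a log axis, by gene and group. Gdf11, Tgfbr1 and Smad3 sit at the top and Nr6a1 lies below Smad2 by 10.3-fold to 18.5-fold. Pou5f1 and Isl1, which were not tested, are not shown.

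The first comparison sets Lin28a-induced against no-Cre libraries, with TRE-Lin28a, RLSL-rtTA and doxycycline held equal. Lin28a induction and the Cre allele itself cannot be told apart in it. Of the 8 tested members only Tgfbr1 passed the test, and it was higher. Of all tested genes 2.91% were called in this comparison, 1.76% being higher and 1.15% lower. No member was called lower. The median log2 fold change was 0.14 over the 8 members and -0.00 over all tested genes. The ranges of the groups did not overlap for 4 of the 8 (Gdf11, Acvr2b, Tgfbr1 and Smad2, each higher), against 23.4% of all tested genes. Adjusted p-values are from edgeR's quasi-likelihood test with Benjamini-Hochberg adjustment over all 16340 genes, ± is the standard error of a log2 fold change or the SD of a level, and a gene is called at an adjusted p under 0.05.

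Tgfbr1, the type I receptor with the 8-letter let-7 match, spans chr4:47353222-47414931 on the plus strand. It had 347, 338, 340 and 371 CPM in the Lin28a-induced libraries, against 305, 302 and 298 CPM in the no-Cre libraries. Each Lin28a-induced library was above each no-Cre library. The means were 349 ± 14.9 CPM (SD, n = 4) and 302 ± 3.51 CPM (SD, n = 3), a 1.16-fold difference (log2 fold change 0.21 ± 0.05, 95% interval 0.11 to 0.31, edgeR adjusted p = 0.0313). The call depended on having all compared libraries. It was lost whichever of those 7 was left out, with edgeR adjusted p from 0.0551 to 0.162, and without the filter on low counts (0.069). DESeq2 gave an adjusted p of 0.000608.

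The other receptors did not pass. Acvr2b, a type II receptor that binds Gdf11 (chr9:119402118-119434995, plus strand), had 48.7, 51.7, 51.2 and 53.8 CPM in Lin28a-induced libraries and 47.9, 43.9 and 46.6 CPM in no-Cre libraries. These did not overlap, and the log2 fold change was 0.16 ± 0.07 (95% interval 0.01 to 0.30, edgeR adjusted p = 0.265). Acvr2a, the other type II receptor (chr2:48814109-48903269, plus strand), shares 446 exonic bases with Orc4 on the opposite strand, and the strand setting of the counting is not given in the sources used here. It had 70.2, 71.6, 70.7 and 73.4 CPM in Lin28a-induced libraries, against 73.8, 71.4 and 76.8 CPM in no-Cre libraries, which overlap. Its log2 fold change was -0.05 ± 0.06 (95% interval -0.18 to 0.08, edgeR adjusted p = 0.751). Acvr1b, the second type I receptor (chr15:101174067-101213684, plus strand), also overlapped, with 105, 95.3, 95.8 and 101 CPM in Lin28a-induced and 96.6, 96.6 and 93.7 CPM in no-Cre libraries. Its log2 fold change was 0.05 ± 0.05 (95% interval -0.07 to 0.17, edgeR adjusted p = 0.714).

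Gdf11, the ligand (chr10:128882295-128891718, minus strand), had 264, 242, 262 and 245 CPM in Lin28a-induced libraries, against 227, 221 and 229 CPM in no-Cre libraries. Every Lin28a-induced library was above every no-Cre library. The log2 fold change was 0.17 ± 0.18 (95% interval -0.25 to 0.58, edgeR adjusted p = 0.74). This outcome depended on a library outside the comparison, since all groups share 1 estimate of the spread and wild-type replicate 2 was low. Without that library the log2 fold change was 0.16 ± 0.04 with an edgeR adjusted p of 0.0274, and in a fit of the compared groups alone the adjusted p was 0.0234.

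Smad2 and Smad3, the effectors that the type I receptors phosphorylate, did not pass either. Smad2 had 99.2, 104, 102 and 100 CPM in Lin28a-induced and 92, 88.8 and 97.1 CPM in no-Cre libraries, which did not overlap. Its log2 fold change was 0.13 ± 0.05 (95% interval 0.03 to 0.23, edgeR adjusted p = 0.19). Smad3 had 194, 188, 188 and 198 CPM in Lin28a-induced and 204, 208 and 196 CPM in no-Cre libraries, which overlap at 1 library of each. Its log2 fold change was -0.08 ± 0.06 (95% interval -0.20 to 0.04, edgeR adjusted p = 0.561).

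Nr6a1, the trunk factor with 8 let-7 matches, spans chr2:38723370-38927688 on the minus strand, and its introns hold Nr6a1os, Mir181a-2 and Mir181b-2 on the opposite strand. It had 168, 275, 217 and 311 reads in Lin28a-induced libraries and 222, 205 and 192 reads in no-Cre libraries. Scaled, these were 5.54, 7.98, 6.8 and 7.9 CPM in Lin28a-induced and 5.79, 6.11 and 6.59 CPM in no-Cre libraries. Lin28a-induced replicate 2 lay below all no-Cre libraries and the other Lin28a-induced libraries above them. The log2 fold change was 0.20 ± 0.15 (95% interval -0.13 to 0.53, edgeR adjusted p = 0.589). Among all tested genes, 26 of 544 with an 8-letter match (4.78%) and 213 of 12047 with no match (1.77%) were called higher in Lin28a-induced libraries. The shares called lower were 1.29% and 1.34%, and the median log2 fold changes 0.02 and -0.00. In no-Cre against wild-type libraries, 25.9% and 23.2% of these classes were higher, and 18.4% and 21.4% lower. Other differences between the classes, such as 3′ UTR length, were not tested.

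Pou5f1 and Isl1 were at the limit of detection. Pou5f1 (chr17:35506018-35510772, plus strand) had 3, 0, 1 and 1 reads in Lin28a-induced, 2, 0 and 0 in no-Cre, and 1, 0 and 0 in wild-type libraries. It shares 317 exonic bases with Gm19553 on the opposite strand. Of its 32-base stretches, 4.22% also occur in other genes. Since the settings for strand and multiple alignment are not given, these few reads may not all be of Pou5f1. Isl1 (chr13:116298281-116309689, minus strand) had 1, 4, 2 and 6 reads in Lin28a-induced, 0, 1 and 0 in no-Cre, and none in wild-type libraries. All 4 Lin28a-induced libraries thus had an Isl1 read and 1 of the 6 others did.

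Summed over a group, the Isl1 level was 0.0957 CPM in Lin28a-induced libraries (exact Poisson 95% interval 0.051 to 0.164) and 0.00981 CPM in no-Cre libraries (0.000248 to 0.0546). In wild-type libraries the count of 0 allows up to 0.0517 CPM by the same interval. These limits cover counting error only. With no filter, edgeR gave Isl1 an adjusted p of 0.494 between Lin28a-induced and no-Cre libraries and 0.061 between Lin28a-induced and wild-type libraries. For Pou5f1 the summed levels were 0.0368, 0.0196 and 0.014 CPM in Lin28a-induced, no-Cre and wild-type libraries, with overlapping Poisson intervals.

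Markers of cells that express these genes elsewhere were also low. Motor neurons express Isl1, and the 7 of their 8 markers found in the table summed to 12.9 to 15.1 CPM in Lin28a-induced, 13.2 to 16.2 CPM in no-Cre and 3.85 to 17.6 CPM in wild-type libraries, mostly from Mnx1, with Slc5a7 at up to 4.25 CPM and Chat at 0 throughout. The sensory neuron markers, again 7 of 8, summed to 28.5 to 65.7, 38.4 to 49.9 and 28.4 to 30.9 CPM in those groups, with Neurog1 at 0 throughout. The 8 hindlimb and cloacal mesenchyme markers summed to 7.52 to 10.7 CPM in Lin28a-induced, 10.5 to 10.7 CPM in no-Cre and 7.57 to 9.61 CPM in wild-type libraries. Germ cells express Pou5f1, and their 10 markers summed to 18.7 to 23.3, 19.9 to 26.4 and 41.6 to 46.3 CPM in the same order. Dppa3 was at 0 in every library. Tfap2c averaged 10.9, 10.9 and 34.1 CPM in that order, whereas Prdm1 averaged 3.75, 3.42 and 1.58 CPM. In each comparison with wild type, 1 of 6 tested germ cell markers was called higher and 1 lower. Without wild-type replicate 2, none was called higher in no-Cre libraries. Of all tested genes 24.3% were higher and 25% lower in Lin28a-induced libraries, and 21% higher and 21.4% lower in no-Cre libraries. The part of these cell types in the Isl1 and Pou5f1 reads was not tested.

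**Figure D3:**
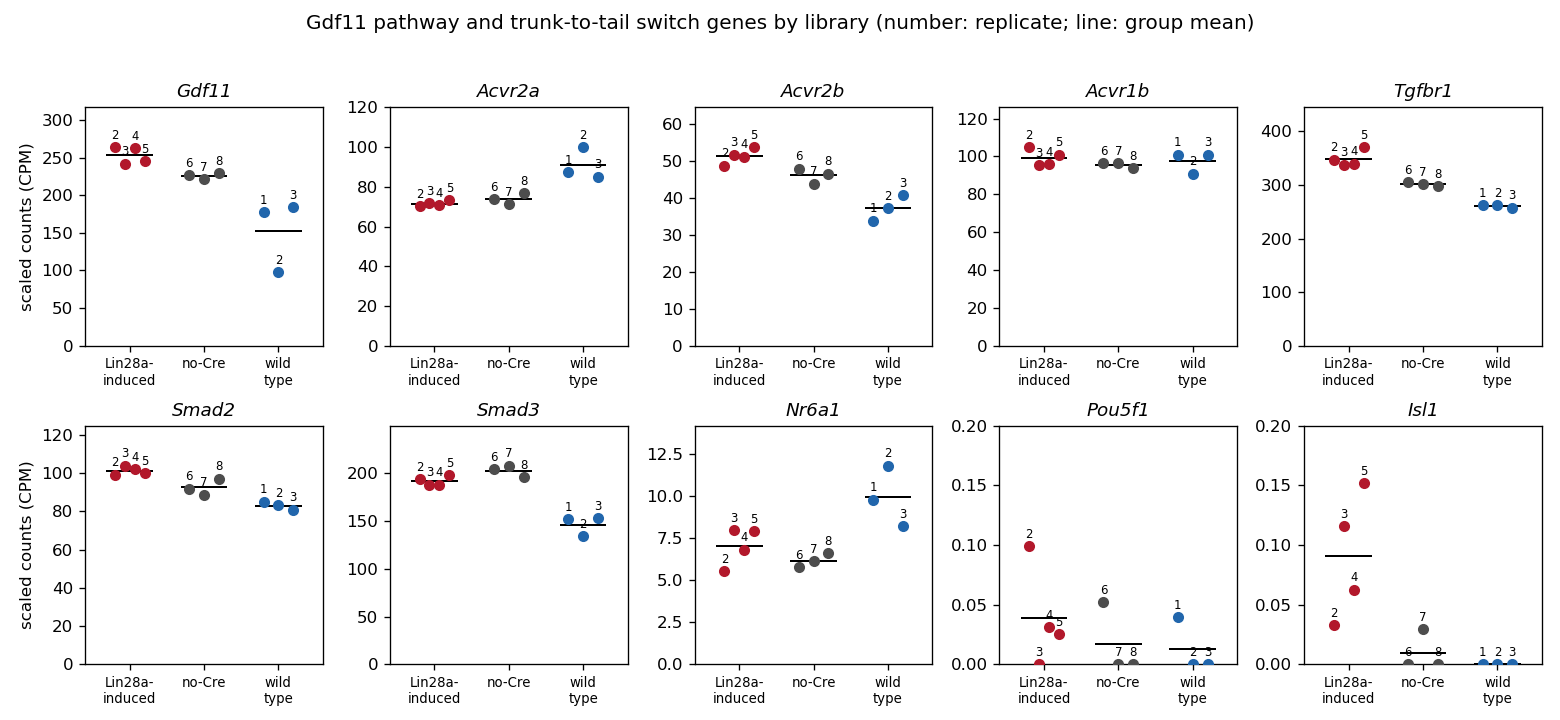
Scaled counts (CPM) of each member per library, 1 panel per gene, with the Lin28a-induced group at left, then no-Cre and wild type; digits are replicate numbers and lines are group means. Tgfbr1 steps down over the 3 groups, and wild-type replicate 2 lies apart for Gdf11 at 97.9 CPM.

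The other comparisons set the 2 transgenic groups against wild type. They share the wild-type libraries, so their likeness is not independent evidence, and each confounds transgenes and doxycycline with all else that separates the wild-type libraries. Lin28a-induced against wild type, 7 of the 8 tested members were called, 5 higher (Gdf11, Acvr2b, Tgfbr1, Smad2 and Smad3) and 2 lower (Acvr2a and Nr6a1). That comparison called 49.3% of all tested genes, 24.3% higher and 25% lower. No-Cre against wild type, the same 5 members were higher and the same 2 lower, where 42.5% of all tested genes were called, 21% higher and 21.4% lower. Ranges did not overlap for 7 of 8 members in each comparison, against 49.3% of all tested genes for Lin28a-induced libraries and 52% for no-Cre libraries. The median log2 fold change of the 8 members was 0.34 for Lin28a-induced and 0.18 for no-Cre libraries, against -0.02 over all tested genes in both comparisons.

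For Gdf11 the wild-type libraries had 177, 97.9 and 184 CPM, below the 242 to 264 CPM of Lin28a-induced and the 221 to 229 CPM of no-Cre libraries. The log2 fold change against wild type was 0.73 ± 0.19 for Lin28a-induced libraries (edgeR adjusted p = 0.0105) and 0.56 ± 0.20 for no-Cre libraries (0.0456). Without wild-type replicate 2 these became 0.49 ± 0.05 (edgeR adjusted p = 1.42e-06) and 0.33 ± 0.05 (0.000146). The no-Cre call held when any wild-type library was left out and was lost when any of the 7 other libraries was, with edgeR adjusted p from 0.0616 to 0.101. A sex covariate gave 0.0687 and a fit of the compared groups alone 0.112.

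The receptors moved in different directions. Tgfbr1 had 263, 262 and 258 CPM in wild-type libraries, the tightest group of any member, with a coefficient of variation of 0.899%. It was higher in Lin28a-induced libraries by a log2 fold change of 0.42 ± 0.05 (edgeR adjusted p = 1.03e-05) and in no-Cre libraries by 0.21 ± 0.05 (0.00451). The 3 groups thus stood at 349, 302 and 261 CPM with no overlap between neighbours. Acvr2b had 33.9, 37.2 and 40.8 CPM in wild-type libraries and was higher by 0.46 ± 0.07 in Lin28a-induced (edgeR adjusted p = 9.49e-05) and by 0.31 ± 0.07 in no-Cre libraries (0.00403).

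Acvr2a ran the other way, with 87.3, 100 and 85 CPM in wild-type libraries. Its log2 fold change against wild type was -0.35 ± 0.06 for Lin28a-induced (edgeR adjusted p = 0.000283) and -0.30 ± 0.06 for no-Cre libraries (0.00204). Acvr1b had 101, 90.9 and 101 CPM in wild-type libraries, overlapping both other groups. Its log2 fold change was 0.02 ± 0.06 for Lin28a-induced (95% interval -0.09 to 0.14) and -0.03 ± 0.06 for no-Cre libraries (-0.15 to 0.10), and neither was called (edgeR adjusted p = 0.74 and 0.726). Over all 10 libraries its coefficient of variation was 4.26%, the lowest of the tested members, against 23.4% for Gdf11 and 25.5% for Nr6a1.

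Both effectors were higher than in wild type. Smad3 (chr9:63646767-63757994, minus strand) had 152, 134 and 153 CPM in wild-type libraries, and its log2 fold change was 0.39 ± 0.06 for Lin28a-induced (edgeR adjusted p = 8.01e-05) and 0.47 ± 0.06 for no-Cre libraries (4.34e-05). Smad2 had 85.2, 83.2 and 80.9 CPM in wild-type libraries, with log2 fold changes of 0.29 ± 0.05 for Lin28a-induced (edgeR adjusted p = 0.000322) and 0.16 ± 0.05 for no-Cre libraries (0.0267). The no-Cre call of Smad2 was lost without no-Cre replicate 6 (edgeR adjusted p = 0.0575), no-Cre replicate 8 (0.102) or wild-type replicate 3 (0.059).

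Nr6a1 was the member with the largest fall in no-Cre libraries. Its wild-type libraries had 246, 290 and 179 reads, or 9.78, 11.8 and 8.22 CPM, all above the 5.54 to 7.98 CPM of Lin28a-induced and the 5.79 to 6.59 CPM of no-Cre libraries. The log2 fold change was -0.49 ± 0.15 for Lin28a-induced (95% interval -0.82 to -0.16, edgeR adjusted p = 0.0163) and -0.69 ± 0.16 for no-Cre libraries (-1.04 to -0.34, 0.00446). Without wild-type replicate 2, which was the highest for Nr6a1 and the lowest for Gdf11, these were -0.35 (edgeR adjusted p = 0.0727, no longer called) and -0.55 (0.0141).

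**Figure D4:**
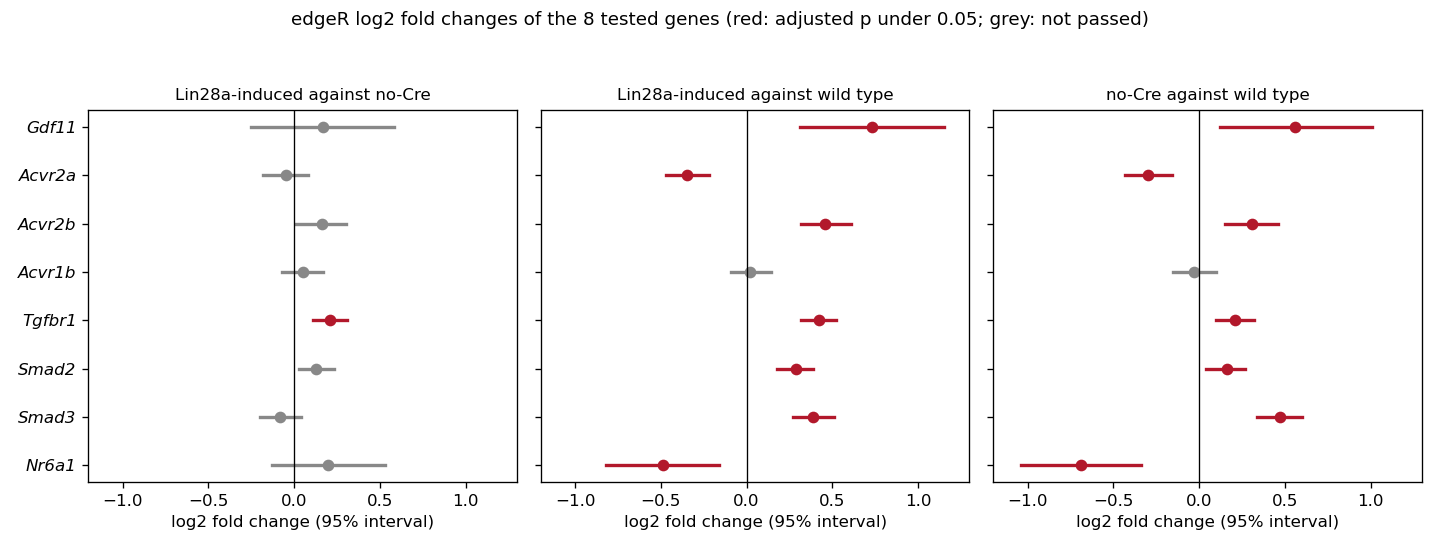
Log2 fold change with its 95% interval for the 8 tested members in each of the 3 comparisons, Lin28a-induced against no-Cre, Lin28a-induced against wild type and no-Cre against wild type; red marks an edgeR adjusted p under 0.05. Only Tgfbr1 is red in the first, at 0.21, and all members but Acvr1b are red in the others.

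Against the same wild-type libraries, markers of other cell types also differed. Of all tested genes 24.3% were higher and 25% lower in Lin28a-induced libraries, and 21% higher and 21.4% lower in no-Cre libraries. The summed endothelial markers were 283 to 392 CPM in Lin28a-induced and 299 to 335 CPM in no-Cre libraries, against 68.9 to 143 CPM in wild-type libraries, with 8 of 8 higher in both comparisons. Gut endoderm markers summed to 151 to 172 and 151 to 173 CPM in those groups, against 278 to 364 CPM in wild type, although 3 of 7 tested were called higher and 2 lower in each comparison. General neuron markers summed to 30.4 to 33.5 and 27.9 to 35 CPM, against 61.7 to 79.3 CPM, with 1 of 9 higher and 3 lower in each. Macrophage markers summed to 90 to 111 CPM in Lin28a-induced and 77.9 to 93 CPM in no-Cre libraries, against 32.3 to 69.3 CPM. Of 7 tested, 5 were higher and none lower in Lin28a-induced libraries, and 4 higher and 1, Mrc1, lower in no-Cre libraries. Without wild-type replicate 2 the counts in no-Cre libraries were 0 higher and 1 lower. Red blood cell markers summed to 3750 to 6150 CPM in Lin28a-induced and 5660 to 9560 CPM in no-Cre libraries, against 2760 to 8100 CPM, with 4 of 10 higher and 1 lower in each. Among them Hba-a2 had log2 fold changes against wild type of 8.41 for Lin28a-induced and 8.98 for no-Cre libraries, and Hbb-bs of -3.05 and -2.54. Hba-a2 had only 0, 0.69 and 0.413 CPM in wild-type libraries. Hba-a1 averaged 249 CPM in Lin28a-induced, 367 in no-Cre and 529 in wild-type libraries. The cause of this contrast was not tested. In Lin28a-induced against no-Cre libraries, all 10 red blood cell markers had log2 fold changes below 0, from -0.67 to -0.44. None was called by edgeR or DESeq2 or at an unadjusted p under 0.05. Of the 12 tail bud markers, 5 were called higher and none lower in each comparison with wild type, and none in either direction between Lin28a-induced and no-Cre libraries by edgeR or DESeq2, with 1 higher at an unadjusted p under 0.05 and 1, Fgf8, called without wild-type replicate 2. Their part in the members' differences was not tested.

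Other genes of the pathway were also counted, and the counts are read against the shares of all tested genes. Between Lin28a-induced and no-Cre libraries, none of 4 other ligands, 6 other receptors and 13 Smad partners or feedback genes was called by edgeR or DESeq2. At an unadjusted p under 0.05 in edgeR, 1 receptor was lower and 4 Smad partners were higher. By the same rule 4 of 13 processing enzymes and antagonists were lower and 1 was higher. The shares of all tested genes by that rule were 7.92% lower and 8.35% higher. Of 13 processing enzymes and antagonists 1 was called, Pcsk6, a proprotein convertase that cleaves TGF-beta family precursors. It had 12.8, 18.3, 16.1 and 20.8 CPM in Lin28a-induced libraries, against 26.6, 27.6 and 23.7 CPM in no-Cre libraries, with no overlap. The log2 fold change was -0.61 ± 0.14 (edgeR adjusted p = 0.0332). Wild-type libraries, at 18.7, 17.8 and 14.9 CPM, lay with the Lin28a-induced ones (log2 fold change of Lin28a-induced against wild type -0.01, edgeR adjusted p = 0.957) and below the no-Cre ones (no-Cre against wild type 0.60, 0.00638). The call of Pcsk6 against no-Cre was lost without Lin28a-induced replicate 3 (edgeR adjusted p = 0.0566) or 4 (0.114), or no-Cre replicate 6 (0.134), 7 (0.152) or 8 (0.081). Without wild-type replicate 2, a second gene of this list, Tll2, was called lower as well. Pcsk5, the convertase known to process the Gdf11 precursor, averaged 39.8 CPM in Lin28a-induced and 45.6 CPM in no-Cre libraries and was not called (log2 fold change -0.20, edgeR adjusted p = 0.261).

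Of the 4 other ligands that were tested, 1 was called higher and 1 lower in each transgenic group against wild type, a share of called genes near that of all tested genes (49.3% for Lin28a-induced and 42.5% for no-Cre libraries). Tgfb1 averaged 20.2 ± 2.65 CPM in Lin28a-induced (n = 4), 19.9 ± 1.14 in no-Cre and 8.03 ± 2.39 in wild-type libraries (SD, n = 3 each). Tgfb2 averaged 30.1 ± 5.93, 32 ± 2.01 and 69.6 ± 25.9 CPM in the same groups. Their log2 fold changes in Lin28a-induced against wild-type libraries were 1.34 ± 0.16 for Tgfb1 and -1.21 ± 0.24 for Tgfb2 (edgeR adjusted p = 2.88e-05 and 0.00372). Among 6 other tested receptors, 2 were higher and 1 lower in Lin28a-induced libraries, and 2 higher and none lower in no-Cre libraries, which is again near those shares. The higher ones included Tgfbr2, the type II receptor of the TGF-beta ligands, at 29.1 CPM in Lin28a-induced, 28.4 in no-Cre and 16.5 in wild-type libraries.

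The 13 processing enzymes and antagonists gave 5 higher and 1 lower in Lin28a-induced against wild-type libraries, and 6 higher and 1 lower in no-Cre against wild-type libraries. Of all tested genes 24.3% were higher and 25% lower in Lin28a-induced libraries, and 21% higher and 21.4% lower in no-Cre libraries. The one that was lower in both was Fst, follistatin, which binds and neutralises activins and Gdf11. It averaged 8.91 CPM in Lin28a-induced, 7.75 in no-Cre and 15.9 in wild-type libraries (log2 fold change -0.83 and -1.03, edgeR adjusted p = 0.00136 and 0.000767). Lefty2, a secreted inhibitor of Nodal signalling, averaged 3.79, 3.28 and 1.72 CPM in those groups and was higher in both comparisons with wild type (log2 fold change 1.14 and 0.93, edgeR adjusted p = 0.000265 and 0.00231).

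Of 13 tested Smad partners and feedback genes, 7 were higher and 1 lower in Lin28a-induced against wild-type libraries, and 5 higher and 3 lower in no-Cre against wild-type libraries, where the same shares of all tested genes apply. Ski, a corepressor that binds Smad2 and Smad3, averaged 307 CPM in Lin28a-induced, 302 in no-Cre and 231 in wild-type libraries. Smad7, an inhibitory Smad induced by the pathway, averaged 35.2, 31.4 and 37.1 CPM. It was not called between Lin28a-induced and wild-type libraries and was lower in no-Cre against wild-type libraries (log2 fold change -0.24, edgeR adjusted p = 0.0239). That call was lost when any 1 of the 3 no-Cre libraries was left out, with edgeR adjusted p from 0.0548 to 0.0882.

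Hox genes are the positional readout of the switch, those of the trunk being expressed before those of the tail. Of 12 posterior Hox genes (groups 10 to 13), 2 were higher and none lower in Lin28a-induced against no-Cre libraries. Of 15 trunk Hox genes (groups 5 to 9) none was called. In that comparison 1.76% of all tested genes were higher and 1.15% lower. Without wild-type replicate 2, edgeR called 7 posterior and 4 trunk genes higher, against 4.65% of all genes tested in that fit. At an unadjusted p under 0.05 in edgeR, 7 posterior and 6 trunk genes were higher, against 8.35% of all tested genes, and DESeq2 called 5 posterior and 2 trunk genes higher, against 3.06%. None was lower by any of these. The 2 called by edgeR were Hoxd10 and Hoxd11. Hoxd10 averaged 83 ± 6.95 CPM in Lin28a-induced and 65.5 ± 1.84 CPM in no-Cre libraries (log2 fold change 0.34 ± 0.06, edgeR adjusted p = 0.0125), and 97.2 ± 4.01 CPM in wild-type libraries. The call of Hoxd10 was lost without no-Cre replicate 6 (edgeR adjusted p = 0.0887), 7 (0.0705) or 8 (0.074). Hoxd11 kept its call in 2 of the 10 fits that leave out 1 library. In no-Cre against wild-type libraries, 7 of the 15 trunk Hox genes were lower and none higher, and the posterior genes gave 3 higher and 3 lower. Of all tested genes 21% were higher and 21.4% lower there. In Lin28a-induced against wild-type libraries, the trunk genes gave 4 higher and 3 lower, and the posterior genes 3 higher and 2 lower. Here the shares of all tested genes were 24.3% higher and 25% lower. Without wild-type replicate 2, the posterior genes gave 3 higher and 5 lower in no-Cre libraries. In Lin28a-induced libraries they gave 3 higher and 3 lower, and 2 trunk genes were higher and 3 lower. Of all genes tested in that fit, 19.5% were higher and 19.3% lower in no-Cre libraries. In Lin28a-induced libraries 22.7% were higher and 22.7% lower.

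Tested genes were also ranked by how closely their log2 CPM followed a member over the 10 libraries, leaving out unnamed and predicted symbols. Closest to Gdf11 were D17Wsu92e, Tfip11, Sp8, Supt5 and Pptc7, with Pearson r from 0.992 to 0.996. Closest to Nr6a1 were Zfp820, Cep112, Zfp174, Usp31 and Cyp2d22, with r from 0.947 to 0.96. These values describe libraries that share the separation of wild type from the other groups and the low wild-type replicate 2. D17Wsu92e, for example, averaged 248 CPM in Lin28a-induced, 228 CPM in no-Cre and 180 ± 39.9 CPM (SD, n = 3) in wild-type libraries.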

How the data were processed

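Per the labels, tail bud RNA was made into strand-specific libraries and read as single 75-base reads. The deposited table holds unnormalized whole read counts for each gene symbol. Per the submitters' processing notes, STAR 2.3.1z4, featureCounts, DESeq2 and mm10 were used. No annotation release and no setting for strand or multiple alignment is stated there.

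Counts were filtered with filterByExpr, scaled with TMM and tested with edgeR 4.0.16 (robust quasi-likelihood, R 4.3.3), all 10 libraries in 1 fit with 3 contrasts and Benjamini-Hochberg adjustment over 16340 genes at 0.05. The standard error is the absolute log2 fold change over the square root of F. RPKM divides CPM by the union exon length of GENCODE M21, in which 35654 symbols matched by symbol, 1806 by an older symbol and 1260 not at all. Correlations used log2 CPM with a prior count of 2.

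The members and gene lists were chosen with earlier results of these data known. Named genes were all members, Lin28a, up to 4 genes per list with the smallest p against no-Cre and against wild type, and the 5 genes most correlated with Gdf11 and with Nr6a1. Unnamed and predicted symbols were left out of that correlation ranking. Trim6, Mcf2l, Fgf8 and Tll2 were named after their values were seen. The sequence of 1 let-7 match window of Nr6a1 is not reported here. The tests were tried on simulated data with 200 changed genes. For Lin28a-induced against no-Cre, they found 16 of 57 genes changed 1.3-fold and 20 of 46 changed 1.5-fold. They found 29 of 41 changed 2-fold and 49 of 53 changed 3-fold, with 9 false calls. Changes smaller than 1.3-fold were not simulated. Alternatives were DESeq2 1.42.0, its size factors in edgeR, no filter, 1 CPM in 3 libraries, the compared groups alone, a sex covariate, GC and length offsets (lowess span 0.2), the replicate number as a block, and leaving out each library.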

Additional observations from a re-analysis of the deposited data

How the results depend on the processing

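Between Lin28a-induced and no-Cre libraries 476 genes were called, against 303 with a sex covariate, 1791 with only the groups compared, 982 with DESeq2 and 104 to 1482 when 1 library was left out, the highest being without wild-type replicate 2. The members called were 1, against 0 with no filter, 2 with only the groups compared and 0 to 2 with 1 library left out. Leaving out 1 library gave 7037 to 8211 genes and 6 to 7 members for Lin28a-induced against wild type, and 5550 to 7319 genes and 5 to 7 members for no-Cre against wild type. The log2 fold change of Acvr1b, never called, changed sign for Lin28a-induced against wild type with GC and length offsets (-0.05), without Lin28a-induced replicate 2 (-0.00) and without wild-type replicate 2 (-0.03), and for no-Cre against wild type without wild-type replicate 1 (0.00) or 3 (0.00). With 1 library left out it ran from -0.03 to 0.05 in the first and from -0.08 to 0.00 in the second. The cause of these changes was not tested. Over coding length alone, Tgfbr1 averaged 194 RPKM over the 10 libraries and stood above Gdf11 at 177, Smad3 at 138, Acvr1b at 64.4, Smad2 at 61.6, Acvr2a at 50.7, Acvr2b at 28.3 and Nr6a1 at 5.09. With 8 letters, 2 members in place of 4 held a let-7 match.

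Replicate numbers 2 and 3 occur in the Lin28a-induced and wild-type groups, and the labels do not say what the numbers mean. Deviations from the group mean had r = -0.0284 and -0.0786 between same-numbered libraries. Between differently numbered ones r was 0.126 and -0.0168. So few pairs cannot show whether same-numbered libraries share a source. With the replicate number as a block, which was fitted on these 2 groups alone, 3831 genes and 3 members were called. The fit of the same groups without the block called 7145 genes and 7 members, and that of all 10 libraries 8050 genes and 7 members. No-Cre libraries share no number with the others, so no such fit was made for them.

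Pou5f1 and Isl1 lie near the floor of 3 counts, which was 0.0759 to 0.138 CPM per library, and changes below it were not detectable at this depth.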

Other observations

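Nr6a1 held more let-7 seed matches than any other gene searched, and the next genes by that count differed from each other in these libraries. Trim6, a ubiquitin ligase gene with 6 matches, averaged 7.33 ± 1.23 CPM in Lin28a-induced libraries (SD, n = 4) and 3.94 ± 0.617 CPM in no-Cre libraries (SD, n = 3), and it was higher in Lin28a-induced libraries by a log2 fold change of 0.89 ± 0.17 (edgeR adjusted p = 0.0116). Mcf2l, a guanine nucleotide exchange factor gene with 7 matches, averaged 8.62 ± 1.12 CPM in Lin28a-induced and 8.47 ± 0.896 CPM in no-Cre libraries, with a log2 fold change of 0.03 ± 0.13 (edgeR adjusted p = 0.952). Nr6a1 itself averaged 7.06 ± 1.15 CPM in Lin28a-induced and 6.16 ± 0.404 CPM in no-Cre libraries. Trim6 and Mcf2l were named after their values were seen.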
